A study of Mus musculus with 9 samples.

Results

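The brain pericytes described here are the 54 cells that carry the deposited label PC, out of 1235 cells with 9 labels (4.37% of the cells). The cells came from microvascular fragments of the brain of adult mice, which were digested to single cells and sequenced by Smart-seq2, a full-length cDNA method without molecular identifiers. The other labels were aEC, capilEC and vEC (called the endothelial labels here), aSMC and vSMC (the smooth muscle labels), CP-EC, FB and MG. The labels name no treatment, genotype, strain, sex or number of animals, and the abbreviations are not spelled out. Each label is 1 sample, so no test between labels was possible, and the genes that were used to assign the labels are not given in the sources used here. The levels of known marker genes are therefore a description of the labelled cells and no independent check of them.

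The PC cells held 10701951 reads in all, with a median of 158325 per cell (range 100401 to 551353), and the medians of the 9 labels ran from 158325 to 269635. They lay on 4 plates, named by the first part of the cell names: 10 cells on s169s, 10 on s480s, 22 on s482s and 12 on s483s. At 100000 reads per cell the median PC cell had 2758 genes with a read, against 2693 to 3270 over the labels. Reads were summed over the cells of a label and scaled to CPM (counts per 1000000 reads of the label), and differences between labels are on log2(CPM + 5). Intervals are exact Poisson 95% intervals of the summed reads. They cover the counting error of reads only, and not the spread between cells, plates or animals. Several reads can come from 1 molecule in this method, so the intervals are also too narrow for molecules. A gene with no read in PC has a limit of 3 reads, or 0.280 CPM.

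Pericytes are mural cells that sit within the basement membrane of capillaries and touch the endothelium. In the brain they are known for their dependence on PDGF-B from the endothelium, for a part in the blood-brain barrier and for electrical and contractile responses that can set capillary diameter. Among their known genes, Kcnj8 and Abcc9 encode the pore (Kir6.1) and the sulfonylurea receptor (SUR2) of an ATP-sensitive potassium channel, Pdgfrb the PDGF receptor beta, Vtn the matrix protein vitronectin and Atp13a5 a P-type ATPase.

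The 250 bases before the RefSeq start of 4 of these marker genes are printed because the genes were high together in PC. RefSeq places them on GRCm38.p6 at chr6:142571615-142571864, minus strand (Kcnj8), chr6:142702275-142702524, minus strand (Abcc9), chr11:78498870-78499119, plus strand (Vtn) and chr16:29378733-29378982, minus strand (Atp13a5). Each run ends at the base before the start, and capitals mark matches to 3 motifs searched on both strands: the RBPJ core TGGGAA, a forkhead core TAAACA and the TATA box TATAAA.
Kcnj8: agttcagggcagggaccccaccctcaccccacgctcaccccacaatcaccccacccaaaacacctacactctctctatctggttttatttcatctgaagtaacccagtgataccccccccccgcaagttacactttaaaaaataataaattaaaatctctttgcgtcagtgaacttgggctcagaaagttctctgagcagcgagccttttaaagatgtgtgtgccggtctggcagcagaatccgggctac
Abcc9: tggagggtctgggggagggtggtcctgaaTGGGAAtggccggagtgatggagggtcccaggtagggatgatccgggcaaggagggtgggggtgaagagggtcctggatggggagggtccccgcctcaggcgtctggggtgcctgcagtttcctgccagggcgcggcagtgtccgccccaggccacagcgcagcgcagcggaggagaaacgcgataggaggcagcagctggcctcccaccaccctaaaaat
Vtn: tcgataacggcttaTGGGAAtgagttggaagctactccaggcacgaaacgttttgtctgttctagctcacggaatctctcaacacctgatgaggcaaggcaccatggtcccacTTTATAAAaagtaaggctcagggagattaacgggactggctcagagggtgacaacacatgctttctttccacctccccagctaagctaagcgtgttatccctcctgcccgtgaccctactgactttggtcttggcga
Atp13a5: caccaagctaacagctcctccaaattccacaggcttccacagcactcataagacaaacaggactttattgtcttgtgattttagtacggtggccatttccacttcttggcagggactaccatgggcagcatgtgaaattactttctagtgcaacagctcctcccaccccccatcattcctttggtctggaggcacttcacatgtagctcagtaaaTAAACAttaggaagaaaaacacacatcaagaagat
The RBPJ core occurred 1 time in the Abcc9 window and 1 time in the Vtn window. It occurred in 21.6% of all 32851 RefSeq windows of this length. The forkhead core occurred 1 time, in the Atp13a5 window, beginning 35 bases before the start, and in 12% of all windows. The TATA box letters matched at 2 overlapping positions in the Vtn window, once on each strand, and in 12.4% of all windows. The Kcnj8 window held none of the 3 motifs, so no motif occurred in all 4 windows.

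Kcnj8 reached 1876 CPM in PC (1851 to 1903). On the 4 plates it stood at 2049 (s169s), 1531 (s480s), 1815 (s482s) and 2373 CPM (s483s), so no plate was low. The next label was vSMC at 239 CPM, and aSMC (0.688 CPM), the endothelial mean (3.90 CPM) and MG (3.40 CPM) were near 0. Its partner Abcc9 was at 1317 CPM (1295 to 1339), with 1072, 1656, 861 and 2460 CPM on the same plates and 127 CPM in vSMC. Per kilobase of annotated exon, Kcnj8 stood at 736 and Abcc9 at 157 CPM per kilobase. The other sulfonylurea-type pair, Kcnj11 and Abcc8, had no read in PC.

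Vtn was the most abundant of the 5 markers, at 7339 CPM (7288 to 7391). Its plate levels were 8986, 6763, 5855 and 11166 CPM, and vSMC (4492 CPM) and FB (4760 CPM) also held it. Pdgfrb stood at 1865 CPM (1839 to 1891), with 1020, 1850, 1622 and 3360 CPM by plate and 1274 CPM in vSMC. Atp13a5 was the lowest of the 5, at 642 CPM against 352 in vSMC and 0.688 in aSMC. The Vtn, Pdgfrb and Atp13a5 levels thus lay less than the 4-fold distance from vSMC, whereas Kcnj8 and Abcc9 lay beyond it.

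In single PC cells the markers were not all or none. After thinning to 100000 reads, Kcnj8 had a read in 94.4% of the PC cells, Pdgfrb in 83.3%, Abcc9 in 75.9% and Atp13a5 in 55.6%. In cells that should lack these genes, Kcnj8 had a read in 16.1% of capilEC and 18.2% of MG cells, which is the background for this gene. The median depths before thinning were 192941 reads in capilEC and 232674 in MG. Vtn had a read in every PC cell but also in 73.3% of capilEC and 75.9% of MG cells, so for Vtn only the level separates the labels. All 5 markers were read in 23 of 54 PC cells and 4 of them in 17, against all 5 in 4 of 787 capilEC and 2 of 137 MG cells. In vSMC all 5 were read in 3 of 29 cells and 4 of them in 8. Atp13a5 varied most between cells: 26 of 54 cells held at least 50 CPM, and the median cell was at 31.3 CPM with a highest cell of 4209.

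**Figure D1:**
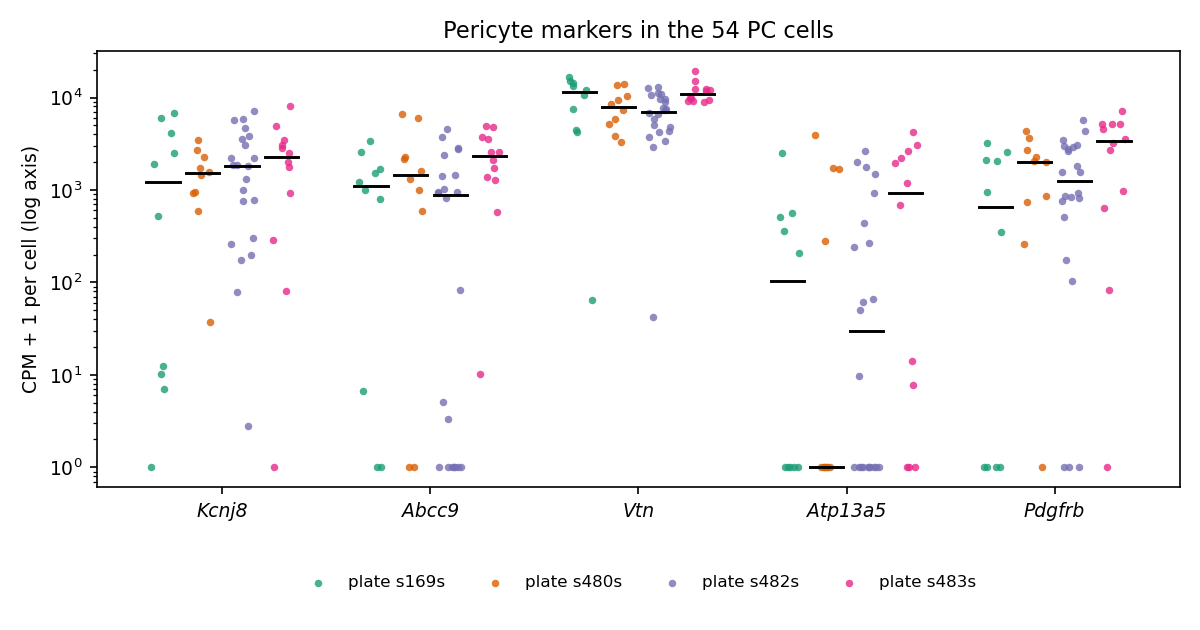
CPM + 1 (log axis) of 5 pericyte marker genes in each of the 54 PC cells, coloured by plate; each point is a cell and each black line the median of a plate's cells. The lowest plate median of Kcnj8, Abcc9, Vtn and Pdgfrb is 648 CPM (Pdgfrb on s169s), while Atp13a5 has a read in 30 of 54 cells; 1 cell each on s169s and s482s is low in Vtn.

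Some PC cells stood apart from the rest. A cell on s482s with 551353 reads, the deepest of the 54, had only 74.4 CPM over a list of 16 known pericyte genes, whose median PC cell was at 29087 CPM. It held Enpp2 (7436 CPM; autotaxin, which makes lysophosphatidic acid), Ttr (3335 CPM; the thyroid hormone carrier transthyretin), Kl (2278 CPM; klotho) and Kcnj13 (1465 CPM; an inward rectifier channel). A cell on s169s with 173783 reads had 190 CPM over the pericyte list and held Cd163l1 (7889 CPM), the chemokine receptors Cxcr6 (3867 CPM) and Cxcr3 (2100 CPM) and the T cell receptor adaptor Lat (2313 CPM). Both are given no other name here, and without them 129 genes were higher and 218 lower than in the endothelial mean by the rule of size used here (121 and 208 with them).

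A larger set of PC cells was rich in endothelial reads. Over a list of 15 genes of all endothelial cells, such as Cldn5 (claudin 5, a tight junction protein), Pecam1 and Flt1 (a VEGF receptor), the median PC cell had 2968 CPM, against 22954 in the median capilEC cell, 593 in MG and 1219 in aSMC. In 9 PC cells the list exceeded 50% of the median capilEC cell, and in 20 cells it lay at or below 10%. The 20 cells include both cells low in the pericyte list, which held 725136 of their 3863083 reads. The 9 cells had a median of 230642 reads and 4900 genes, against 145622 reads and 3269 genes in the 43 cells outside both sets. Their summed pericyte list was 16829 CPM against 33494 in those 43 cells, so they held genes of both kinds. Whether they are pairs of cells in 1 well or reads carried from endothelial cells was not tested. They lay on all 4 plates (2, 2, 4 and 1 cells).

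**Figure D2:**
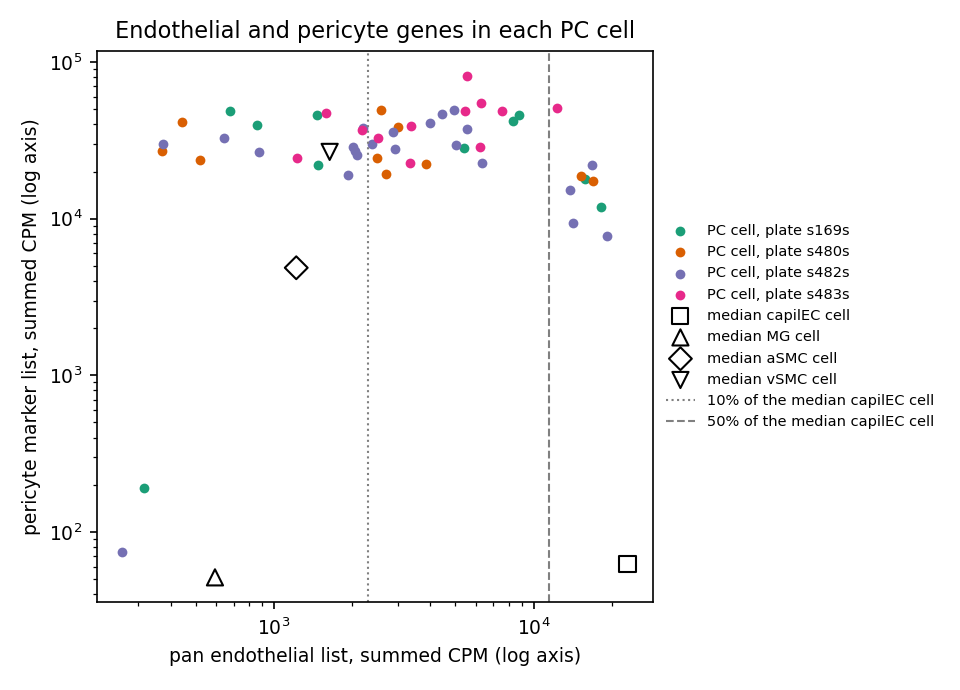
Summed CPM of the pan endothelial list (horizontal) and of the pericyte marker list (vertical) in each PC cell, both on log axes; points are PC cells coloured by plate, open symbols the median cell of 4 other labels, vertical lines 10% and 50% of the median capilEC cell. Of the 54 PC cells, 52 lie at 7711 CPM or more on the pericyte list, 2 lie at 190 CPM or less, and 9 lie right of the dashed line, with pericyte lists from 7711 to 50880 CPM.

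Endothelial reads were therefore read gene by gene in 18 PC cells that had the pericyte list and lay at or below 10% of the median capilEC cell. These cells were chosen by the pan endothelial list, so its own fall in them is a description: its median gene went from 21.3% of the endothelial mean in all PC cells to 3.01%, against 6.28% in MG. Leaving out only the 9 rich cells gave 4.88%. The list of 18 barrier genes of brain endothelium was not used in the choice, but it is also high in the endothelial labels. It summed to 25346 CPM in the 9 rich cells against 2916 CPM in the 43 cells outside both sets. Its fall in the 18 cells is therefore also a description and no independent check. The barrier list went from a median of 24.9% to 4.09%, against 7.91% in MG. Its members at or below 10% of the endothelial mean went from 0 to 14 of 18. The drug efflux pump gene Abcb1a stood at 102 CPM in all PC cells, 10.5 CPM in the 18 cells and 31.3 CPM in MG. Slc2a1, the glucose transporter of the barrier, stood at 553, 103 and 262 CPM in the same order, and Slco1a4, an organic anion transporter, at 594, 55.1 and 104 CPM. For these genes the 18 cells lay below the MG pool. The 18 cells were chosen for few endothelial reads and the MG cells were not, so this does not place PC below background. MG cells ran from 111 to 22145 CPM over the pan endothelial list, with a median of 593 CPM.

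Other genes that endothelial cells also express did not follow that pattern. Of 4562 genes with at least 50 CPM in the endothelial mean, 499 lay below 25% of it in PC. Of the 4562, 1565 reached 100% or more in PC, and 1569 did in the PC cells low in endothelial reads. Such levels were therefore not particular to the genes named here. Slc22a8, an organic anion transporter, stood at 961 CPM in all PC cells and 1117 CPM in the 18 cells, or 133% of the endothelial mean, against 36.2 CPM in MG. Its level was 1692, 625, 820 and 1193 CPM on the 4 plates, so every plate exceeded vSMC (131 CPM). In the 18 cells Cgnl1, a junction protein of the barrier list, was at 119% of the endothelial mean, the forkhead factor gene Foxf2 at 139%, the transcription factor gene Ebf1 at 193% and the hypoxia factor gene Epas1 at 77.0%. Col4a1 and Col4a2, the main collagen IV chains of the basement membrane, stood at 305% and 236%. Notch1 was at 101%, Ece1 (endothelin-converting enzyme) at 78.4% and the scaffold gene Slc9a3r2 at 60.01%. Emcn and Esam, a sialomucin and an adhesion molecule, held 29.8% and 25.4% in the 18 cells against 6.28% and 4.26% in MG. Cdh5, the endothelial cadherin, held 1.02%. These genes belong to the pan endothelial list that chose the 18 cells, so their levels there are a description. Esam also stood at 43.3% in aSMC and 58.5% in vSMC. In the 25 PC cells between 10% and 50% endothelial Esam stood at 92.7%, where the median gene of the list was at 5.80%. Several genes named above were uneven over plates. Over all PC cells Cgnl1 was at 303, 282, 314 and 33.2 CPM. Foxf2 was at 53.4, 21.0, 217 and 209 CPM, and Slc9a3r2 at 26.7, 1108, 518 and 805 CPM. The median PC cell held 13.6 CPM of Cgnl1, far below its pooled level of 260.3 CPM. Emcn and Esam lay between both kinds of gene.

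**Figure D3:**
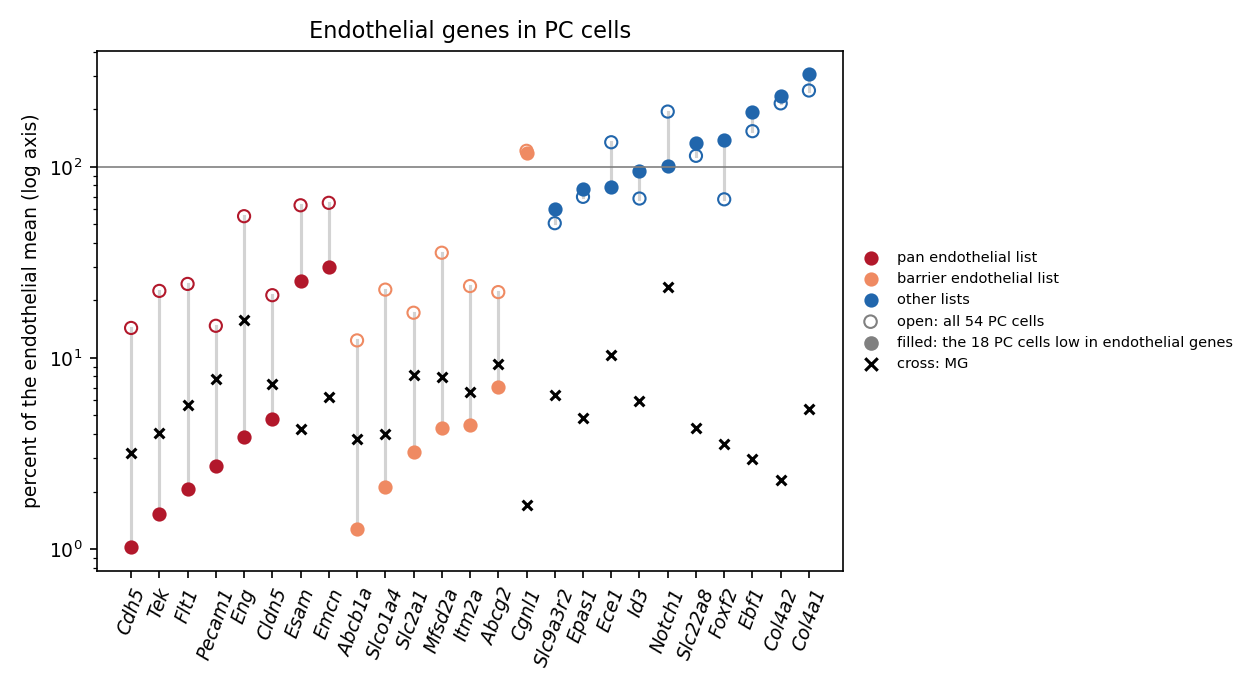
Level of 25 genes as a percent of the mean of aEC, capilEC and vEC (log axis): open circles all 54 PC cells, filled circles the 18 PC cells low in endothelial reads, crosses MG; red, pan endothelial list, orange, barrier list, blue, genes of other lists. Most red and orange genes drop below or near MG in the 18 cells, while Cgnl1 and the blue genes stay at 60% or more of the endothelial mean. The MG cells were not chosen by their endothelial reads. The genes shown were picked by hand from the lists.

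Against the endothelial mean, PC had 121 genes that met the size rule as higher and 208 as lower. To meet the size rule, a gene had to differ 4-fold or more and, in whichever group was higher, reach 50 CPM and be read in 50% or more of the cells at full depth. Later shares of cells are after thinning, unless full depth is named. These are 0.955% and 1.64% of 12672 genes measured (over 5 CPM in either group), and the median difference of all measured genes was −0.10. By the 4-fold difference alone, 7.54% of the measured genes were higher and 6.8% lower. Of the 121 genes, 114 were higher on all 4 plates, and of the 208, 206 were lower on all 4. The leading genes included Kcnj8 (7.72 on the log2 scale), Vtn (7.32), Abcc9 (7.30), P2ry14 (7.27; a UDP-glucose receptor), Slc6a20a (7.24; a proline transporter), Pdgfrb (7.21), Sod3 (7.16; extracellular superoxide dismutase), Pcdh18 (7.11; a protocadherin), Rgs4 (7.09), Cd248 (7.08; endosialin), Heyl (7.02), Ednra (6.98) and Higd1b (6.92). All of these also met the rule in the 20 cells at or below 10% and without both sets of cells. Over the 16 pericyte genes, 15 were higher than in the endothelial mean with a median difference of 6.69, and the 1 that did not meet the rule was Anpep (aminopeptidase N; 94.9 CPM, read in 42.6% of the PC cells at full depth).

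The genes that led the lower side were Pla2g4a (−4.75; cytosolic phospholipase A2), Vwf (−4.51; von Willebrand factor), Fam57a (−4.51), Ap2b1 (−4.31; an adaptor of clathrin-coated vesicles), Ifit1 (−4.27; an interferon-induced gene), Hs3st1 (−4.24, and −4.71 without the 2 cells low in pericyte genes; a heparan sulfate sulfotransferase), Sema7a (−4.23; a semaphorin) and Acer2 (−4.15; a ceramidase). Vwf was at 21.0 CPM in PC and at 1329 in vEC, 237 in capilEC and 203 in aEC. In the 18 PC cells low in endothelial reads it stood at 4.46 CPM, against 10.6 CPM over all MG cells. The number of genes on the lower side moved with the endothelial-rich cells: it was 368 without the 9 cells and 416 in the 20 cells at or below 10%, whereas the higher side gave 127 and 138. Over the 208 genes, the median level was 16.04% of the endothelial mean in all PC cells and 2.29% in the 18 cells. The 4-fold rule that called these genes holds the first value low. They include 10 genes of the pan endothelial list that chose the 18 cells, so the second value is a description.

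For each list below, the share of all measured genes that met the rule against the endothelial mean was 0.955% higher and 1.64% lower. The lists were chosen with earlier results of these data known, so the counts only describe their members. Against the smooth muscle mean, no oxygen, nitric oxide, Notch, TGF-beta, PDGF, vasoactive receptor, G protein or transcription factor list member was higher. Of the ion channel, transporter and basement membrane lists 2 members each were higher, and 1 each of the peptidase and immune lists. Lower was 1 member each of the Notch, TGF-beta, G protein and basement membrane lists. Of all measured genes, 0.384% were higher and 0.457% lower. The ion channels of PC were led by the ATP-sensitive channel. Of 27 channel genes, 19 were measured against the endothelial mean, and 3 were higher: Kcnj8, Abcc9 and Ano1, the calcium-activated chloride channel (408 CPM; 0.515 CPM in the endothelial mean). Ano1 was at 821 CPM in vSMC and 248 in aSMC, so PC lay between both smooth muscle labels. Cacna1c, the pore of the L-type calcium channel, was at 109 CPM in PC and had a read in 20.4% of the thinned cells, against 1.27% of capilEC and 2.19% of MG cells. Kcnmb1, the beta subunit of the large-conductance potassium channel, was at 110 CPM and read in 12.96% of the cells, but the pore gene of that channel, Kcnma1, had no read. Kcnj2, the Kir2.1 channel of capillary endothelium, had 0.0934 CPM in PC against 5.87 in the endothelial mean.

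Of 22 transporter and pump genes, 7 of the 20 measured were higher than in the endothelial mean and 3 lower. Atp1b2, a beta subunit of the sodium pump, stood at 2138 CPM, with 1498, 2241, 1999 and 2983 CPM by plate. Its level in vSMC was 2490 CPM. Slc6a20a was at 958 CPM against 14.2 in aSMC, 316 in vSMC and 1916 in FB. Slc19a1, the reduced folate carrier, stood at 1041 CPM against 5.33 in the endothelial mean, and Slc30a10, a manganese exporter, at 243 CPM against 0.528 but with a read in 33.3% of the cells. The 3 lower genes were Slc2a1, Abcc4 (a multidrug resistance pump; 111 against 552 CPM) and Slc7a1 (a cationic amino acid transporter; 69.2 against 382 CPM), and in the 18 cells low in endothelial reads these stood at 103, 7.65 and 10.5 CPM.

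Of 28 genes for receptors of vasoactive substances, 11 reached 50 CPM in PC, and 3 of the 18 measured were higher than in the endothelial mean: Gper1 (1025 CPM; a G protein-coupled estrogen receptor), P2ry14 (993 CPM) and Ednra (794 CPM; the endothelin A receptor). Ednra was uneven over plates, at 22.7, 671, 696 and 1930 CPM, and its level in PC was close to that of aSMC (723 CPM) and vSMC (847 CPM). Tbxa2r, the thromboxane receptor, was at 399 CPM and read in 42.6% of the thinned cells, Adora2a, an adenosine receptor, at 190 CPM and 24.1%, and Agtr1a, an angiotensin II receptor, at 52.9 CPM and 9.26%. Agtr1a was at 0.0860 CPM in aSMC and had no read in vSMC or MG, but 1 cell gave 33.0% of its PC reads. The adrenergic receptor genes Adra1a and Adra2b had no read in PC, and Adra1b, Adra1d and Adra2a had a read in 1.85% of the cells each. The regulators of G protein signalling Rgs5 (6061 CPM) and Rgs4 (1263 CPM) were higher than in the endothelial mean, while the other 7 of that list did not meet the rule. That list of 9 genes summed to 7727 CPM in PC, 9164 in vSMC and 3745 in aSMC.

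In the nitric oxide and cyclic GMP list, 2 of 10 measured genes were higher than in the endothelial mean and 1 was lower. Gucy1a3 and Gucy1b3, the subunits of soluble guanylate cyclase under their older symbols, stood at 816 and 609 CPM, against 3.47 and 1.57 in the endothelial mean. Per kilobase of exon they stood at 117 and 155 CPM. Nos3, the endothelial synthase, was at 88.4 CPM in PC against 450 in the endothelial mean. It was at 9.88 CPM in the 18 cells low in endothelial reads, against 24.4 CPM over all MG cells. The phosphodiesterase genes Pde3a (194 CPM) and Pde5a (153 CPM) were read in 29.6% and 27.8% of PC cells. The list of 12 genes summed to 2123 CPM in PC, 2856 in vSMC and 3077 in aSMC.

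Among ligands and receptors of the PDGF and angiopoietin pathways, 2 of 17 measured genes were higher than in the endothelial mean and 5 lower. Those higher were Pdgfrb and S1pr3, a sphingosine 1-phosphate receptor (621 CPM against 1.30). The 5 lower were the receptors Flt1, Tek, Tie1, Kdr and S1pr1. Tek was at 164 CPM in all PC cells, 11.2 CPM in the 18 cells low in endothelial reads and 708 CPM in the 9 rich in them. The ligand gene Pdgfb, made by endothelium, went from 72.9 to 4.14 CPM in the same 18 cells. Angpt1, the ligand of Tek, was at 214 CPM in PC against 3.45 in the endothelial mean and at 432 CPM in the 18 cells, with a read in 22.2% of PC cells. Angpt2 was at 330 CPM with a read in 25.9%. It was uneven over plates, at 0, 501, 454 and 18.6 CPM, and CP-EC held more (545 CPM). Pdgfra, the receptor of fibroblasts, was at 0.187 CPM in PC and 782 in FB.

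The Notch list had 2 genes higher than in the endothelial mean and none lower by the rule among 14 measured. Notch3, the receptor of mural cells, stood at 890 CPM against 3.96, and its target Heyl at 819 CPM against 1.36, with 291, 1658, 684 and 573 CPM by plate. Jag1, a ligand, was at 41.2 CPM in PC and lower than in the smooth muscle mean (−2.02). The endothelial ligand Dll4 was at 20.6 CPM in all PC cells and 2.87 CPM in the 18 cells low in endothelial reads. In the TGF-beta and BMP list, 1 of 20 measured genes was higher, Serpine2 (400 CPM; a protease inhibitor), and 2 were lower, Acvrl1 and Id2. Bmp4 was at 200 CPM against 19.8 in the endothelial mean but was read in 22.2% of the cells.

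In the basement membrane list, 4 of 23 measured genes were higher than in the endothelial mean: Vtn, Lama2 (452 CPM; laminin alpha 2), Lamc1 (460 CPM; laminin gamma 1) and Nid1 (471 CPM; nidogen 1). The endothelial laminin chain Lama5 was at 17.1 CPM in PC against 122 in the endothelial mean, and Lama1 had no read. Lama2 was at 16.3 CPM in aSMC, 158 in vSMC and 412 in FB. Lamb1 was at 209 CPM against 0 in aSMC, 7.47 in vSMC and 663 in FB, and was read in 22.2% of PC cells. The fibroblast list moved beside these genes only in part: Igf2 (527 CPM), Col3a1 (321), Col1a2 (206) and Dcn (102) were read in PC at 50 CPM or more, while Col1a1 (0.467), Pdgfra, Lum (0.280) and Dpt (0) were at or near 0. Their part in the laminin values was not tested. No PC cell exceeded 50% of the median FB cell over the 12 fibroblast genes. The list ran from 0 to 6033 CPM over PC cells and from 10611 to 34071 over FB cells.

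Of 16 genes of oxygen sensing and respiratory chain isoforms, 12 were measured against the endothelial mean, with 3 higher and 1 lower. Ndufa4l2 (1263 CPM), Higd1b (1167 CPM) and Cox4i2 (692 CPM), the alternative forms of the subunits or factors Ndufa4, Higd1a and Cox4i1, were higher than in the endothelial mean, where they stood between 3.51 and 7.68 CPM. Ndufa4 was lower, at 65.1 against 299 CPM. The general form Cox4i1 was at 842 CPM in PC and 753 in the endothelial mean. Summed over the 16 genes, the list was at 6352 CPM in PC, 6801 in vSMC and 5136 in aSMC. Among surface peptidases, Enpep (aminopeptidase A, 479 CPM) was higher than in the endothelial mean.

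Among 20 transcription factor genes of mural cells, 17 were measured against the endothelial mean, with 2 higher and 2 lower. Those higher were Heyl and the forkhead factor gene Foxs1, at 391 CPM in PC against 3.29, with 613, 462, 292 and 403 CPM by plate. The lower genes were the shear-responsive factor genes Klf2 (58.6 against 556 CPM) and Klf4 (13.9 against 120 CPM). Prrx1, a homeobox gene, was at 364 CPM against 3.06 but was read in 38.9% of the thinned cells, and Tbx18, a T-box gene of mural cells, was at 44.6 CPM and read in 16.7%. Of the immune and cytokine list, 2 of 19 measured genes were higher, Ifitm1 and the complement inhibitor gene Serping1, and 1 was lower, Vcam1 (an adhesion molecule). Serping1 was uneven over plates, at 18.7, 965, 538 and 893 CPM. The cytokine gene Il34, which encodes a ligand of the CSF1 receptor, was at 397 CPM in PC and 807 CPM in the 18 cells low in endothelial reads. The chemokine gene Cxcl12 went the other way, from 948 CPM to 174 CPM, against 2461 in the endothelial mean. The lists of astrocyte, oligodendrocyte and neuron genes summed to 114, 74.1 and 19.3 CPM in PC, and their median cell held at most 2.29 CPM.

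Of the 3 references, the smooth muscle labels gave the fewest genes past the rule. Against their mean, 48 genes were higher and 57 lower by the size rule, which is 0.384% and 0.457% of 12484 measured genes, and the median difference of all measured genes was 0.01. The 4-fold difference alone was met by 6.39% as higher and 6.6% as lower. Of the 48 genes, 31 were higher on all 4 plates, and of the 57, 55 were lower on all 4. In the 20 cells at or below 10% endothelial, 52 genes were higher, and 18 of the 48 were among them. Without plate s482s the counts were 73 higher and 117 lower.

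The named genes of the higher side were Abcc9 (4.26), Uchl1 (4.26; a ubiquitin hydrolase), Kcnj8 (3.91), Rgl1 (3.79), Itih5 (3.74), Slc22a8 (3.28), Csk (3.16; a kinase that restrains Src), Tmem173 (3.10; the DNA-sensing adaptor STING), Olfml3 (3.05), St8sia4 (3.00; a polysialyltransferase), Emcn (2.78) and Ifitm1 (2.67; an interferon-induced membrane protein). Of these 12, 5 met the rule in the 20 cells: Kcnj8, Abcc9, Slc22a8, Olfml3 and Ifitm1. Itih5 was at 246 CPM in all PC cells, 29.6 in the 18 cells low in endothelial reads and 852 in capilEC, and Emcn was at 566, 260 and 1061 CPM in the same order. Tmem173 and Olfml3 were at 87.1 and 150 CPM in PC but at 1024 and 2872 CPM in MG. Over the 13 genes of the microglia list the median PC cell had 227 CPM, against 46778 in MG, and 1 PC cell had 16994. Whether reads from such cells account for Tmem173 or Olfml3 was not tested. Ifitm1 was at 809, 786, 930 and 1704 CPM by plate, against 12.6 in aSMC, 295 in vSMC and 1.90 in MG.

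The lower side included 6 genes of the contractile list and 4 of the arterial smooth muscle list, which share members. The named genes were Pdlim3 (−6.72), Ltbp1 (−6.45), Pln (−6.42; phospholamban), Olfr558 (−6.33; an olfactory receptor), Nrip2 (−5.11), Myh11 (−5.01; smooth muscle myosin), Sncg (−4.88), Tagln (−4.79; transgelin), Rcan2 (−4.35; a calcineurin regulator), Map1b (−4.34, and −5.85 without the 2 cells low in pericyte genes), Asb2 (−4.30) and Acta2 (−4.28; smooth muscle actin). All 12 met the rule in the 20 cells and without both sets of cells. Acta2 was at 257 CPM in PC (247 to 267), against 6440 in aSMC and 3728 in vSMC. Its plate levels were 110, 722, 163 and 51.3 CPM, the highest cell level was 2505 CPM, and the cell with the most reads of the gene gave 29.5% of its PC reads. It was read in 66.7% of PC cells but also in 65.4% of capilEC and 66.4% of MG cells.

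The contractile list split by gene. Of 19 members, 6 were lower than in the smooth muscle mean and none higher, with a median difference of −1.90. Over all measured genes the shares were 0.457% lower and 0.384% higher. Against the endothelial mean, 8 of the 16 measured were higher and none lower. Myl9 (regulatory myosin light chain) was at 2997 CPM in PC against 4565 in aSMC and 3813 in vSMC, and Cald1 (caldesmon) at 1858 against 1585 and 1909 CPM, so these differed from the smooth muscle mean by −0.48 and 0.09 on the log2 scale. Mylk, the myosin light chain kinase, stood at 476 CPM against 2477 and 955. Cnn1 (calponin), Myocd (myocardin) and Actg2 were at 0.467, 1.22 and 0 CPM in PC and at 814, 789 and 102 in aSMC. No PC cell exceeded 50% of the median aSMC cell over the 11 arterial smooth muscle genes.

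**Figure D4:**
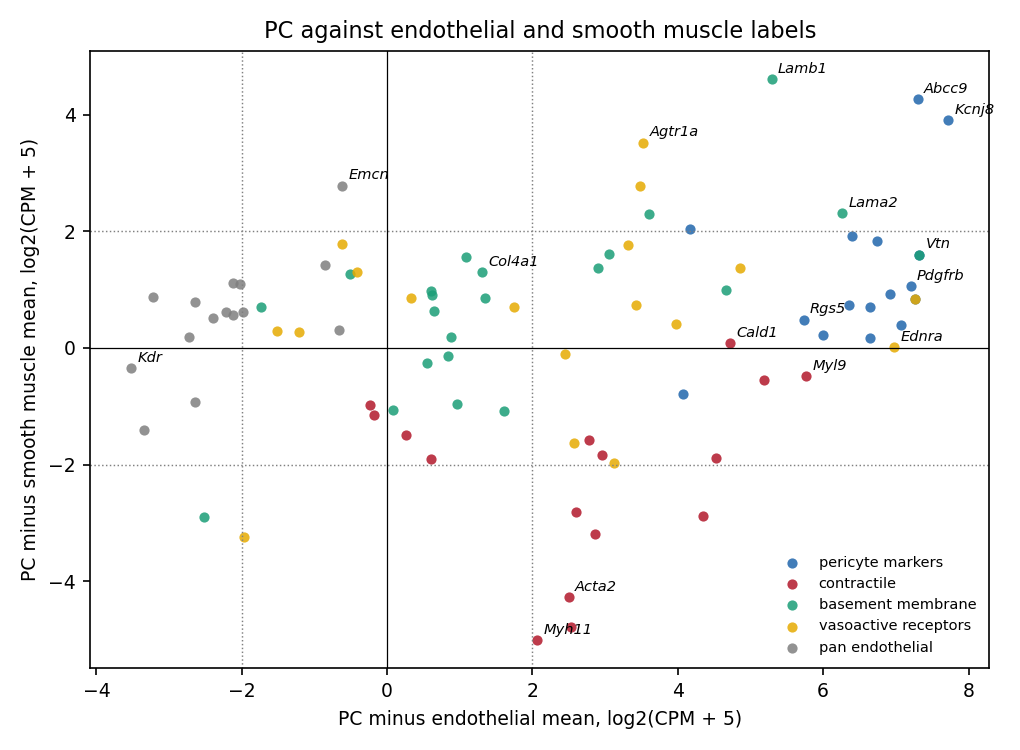
Difference of PC from the endothelial mean (horizontal) and from the smooth muscle mean (vertical) on log2(CPM + 5), for genes of 5 lists with over 5 CPM in both comparisons; dotted lines mark 4-fold. Pericyte markers lie far right and mostly within 4-fold of smooth muscle, Kcnj8 and Abcc9 lie in the upper right, and the contractile genes Acta2 and Myh11 lie low.

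MG, the reference outside the vessel wall, differed from PC in more genes than the other references. Against MG, 347 genes were higher and 302 lower, which is 2.7% and 2.35% of 12857 measured genes, with a median difference of 0.18 over all of them. By the 4-fold difference alone the shares were 12.7% and 10.8%. Which side held more genes depended on scaling and cells: it was 288 higher and 353 lower with TMM factors, 305 and 337 with DESeq2 size factors, 310 and 367 in the 20 cells at or below 10% endothelial, and 298 and 340 without the 9 cells above 50%. The named higher genes included Kcnj8 (7.81), Pdgfrb (7.74), Atp1b2 (7.70), Abcc9 (7.46), Sept4 (7.38; a septin), Cald1 (7.29) and Ndufa4l2 (7.23). Sept4 was at 1931 CPM in PC, with 2474, 2041, 1737 and 1900 CPM by plate, and at 6.59 in MG. The named lower genes were Sirpa (−6.94; the receptor of CD47), P2ry13 (−6.74) and P2ry12 (−6.62; ADP receptors), Il1a (−6.71), Gpr34 (−6.67), Lair1 (−6.66), Gpc2 (−6.64) and Gal3st4 (−6.63). All 13 microglia genes were lower in PC. Gpc2 and Gal3st4 had the same level in PC (1.12 CPM) and nearly the same in MG (607 and 602 CPM). Whether the reads of these genes can be told apart was not tested, so both values are uncertain.

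Few genes set PC apart from every other label. With a 2-fold distance to the next label and the same 50 CPM and 50% limits, 12 genes qualified, or 0.0774% of 15494 genes, and 7 of them were, on every plate, ahead of the other labels with at least 5 cells there, though not always by 2-fold. These were Abcc9 (10.01-fold above vSMC), Kcnj8 (7.70-fold above vSMC), Uchl1 (3.44-fold above CP-EC), Csk (2.47-fold above MG), Ifitm1 (2.40-fold above FB), Adk (2.37-fold above vSMC; adenosine kinase) and Tmem134 (2.15-fold above aSMC). Of all 12 genes, 10 qualified without both sets of cells and 4 in the 20 cells at or below 10% endothelial, where Kcnj8 stood at 7.05-fold, Abcc9 at 5.81-fold, Ifitm1 at 3.16-fold and Clpp (a mitochondrial protease) at 3.14-fold. Clpp was not ahead on every plate (0.875 CPM on s480s) and was chosen for naming after its values were seen. After thinning, Adk was read in 44.4%, Clpp in 42.6% and Uchl1 in 48.1% of PC cells, below the limit they met at full depth. Csk was at 155.8 CPM in those 20 cells and Adk at 152.0 CPM. The 20 cells include the 2 cells low in pericyte genes. Abcc9 was at 762 CPM in the 20 and at 938 CPM without those 2.

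**Figure D5:**
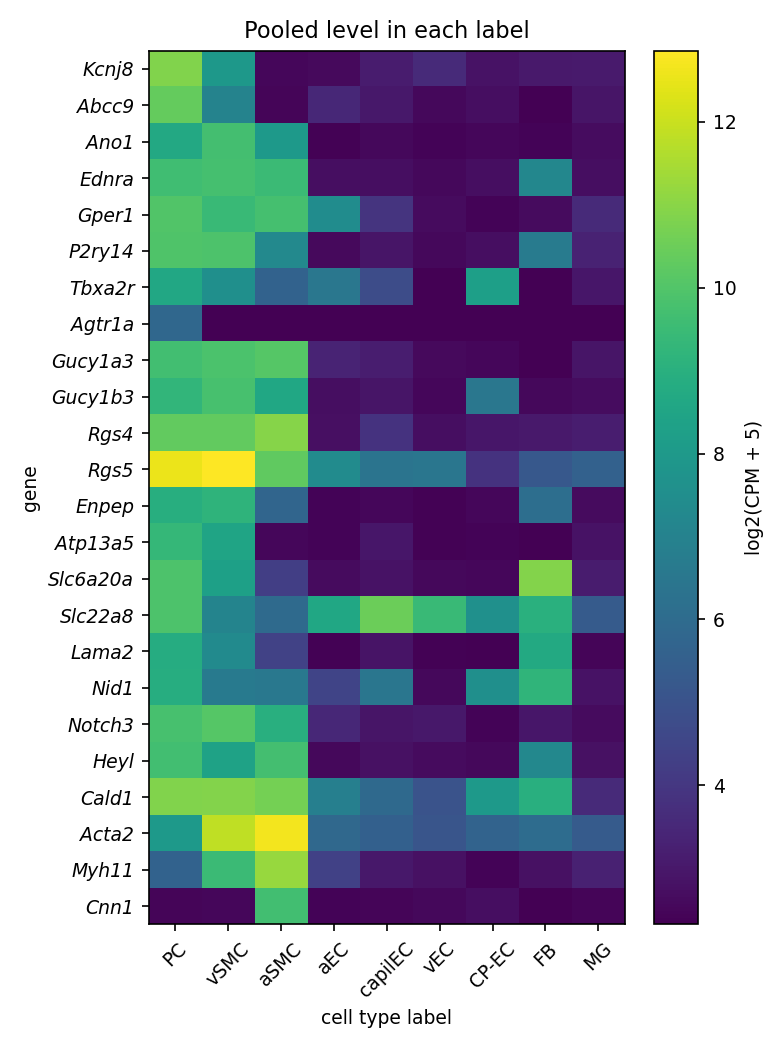
Pooled level, log2(CPM + 5), of 24 genes (rows, grouped by role from channels to contractile genes) in the 9 labels (columns). PC and vSMC share most rows, Kcnj8 and Abcc9 are brightest in PC, Slc22a8 is also bright in the endothelial labels, and Acta2, Myh11 and Cnn1 are bright in aSMC.

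The 8 genes whose level over the 9 labels was most like that of Kcnj8, among genes with at least 50 CPM in PC, included Nts, Nodal, Grm7, Trpc4, Rem1 and 2 predicted genes (Pearson r of log2(CPM + 5) from 0.982 to 0.994 over 9 labels). With 9 points and vSMC second in each, this measures little beyond the order PC, vSMC, rest. Nodal, a TGF-beta family ligand, was at 231 CPM and read in 25.9% of thinned cells, with 499, 29.3, 179 and 425 CPM by plate. Rem1, a small GTPase known to inhibit calcium channels, was at 270 CPM and read in 31.5%, with 481.8, 329, 196 and 234 CPM. Nts, which encodes neurotensin, rested on 1 cell, which gave 81.9% of its PC reads.

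Among the 52 PC cells with the pericyte list, the summed pericyte list was lower in cells with more reads (Spearman rho −0.47). It was also lower in cells with more immediate early and heat shock reads (rho −0.33). Its rank correlation with the endothelial list was weak (rho −0.19). In the 9 cells above 50% endothelial, however, the summed pericyte list was 16829 CPM, against 33494 in the 43 cells outside both sets. Kcnj8 and Abcc9 had a rho of 0.26 across the 52 cells. These are descriptions over cells of 1 sample that share plates and differ in depth. The immediate early and heat shock list ran from 59.2 to 34622 CPM over PC cells with a median of 1463, against medians of 1681 in capilEC, 18683 in aSMC and 29609 in MG. None of its 15 genes met the rule against the endothelial mean, 2 were lower than in the smooth muscle mean and 9 lower than in MG. Of all measured genes, 0.457% were lower than in the smooth muscle mean and 2.35% lower than in MG.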

How the data were processed

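Single cells from brain microvascular fragments were sequenced by Smart-seq2 and the deposited table holds raw counts per gene and cell, with 1 label per cell in a deposited annotation. The submitters' processing notes name featureCounts, Subread 1.4.6-p5 and SAMtools 1.16.1 and the builds GRCm38 and GRCm39 without their roles; no aligner is named in the sources used here. Counts of all 46517 genes were summed per label and scaled to CPM, because each label is 1 sample and no test was possible. The size rule was at least 50 CPM, a read in 50% of cells and 4-fold on log2(CPM + 5). Named genes were the first by log2 difference among those with the same direction on every plate (14 and 8 against the endothelial mean, 12 and 12 against smooth muscle, 8 and 8 against MG), the first 12 by fold to the next label, and list members; predicted and clone-named genes were counted and not named. The members and lists were chosen with earlier results of these data known. No doublet caller was run. Alternatives were edgeR 4.0.16 TMM and DESeq2 1.42.0 size factors as scaling only, other pseudocounts and limits, left-out plates and sets of cells. Scripts ran in R 4.3.3 and Python 3.11.15 and were tested on simulated data. Results for some genes that the rule names are not reported here.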

Additional observations from a re-analysis of the deposited data

How the results depend on the processing

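No paired analysis was possible because each label is 1 sample and no replicate numbers are given. Without a minimum share of cells the counts of genes higher and lower in PC were 562 and 417 against the endothelial mean, 349 and 316 against smooth muscle and 990 and 847 against MG, and 147 genes led the next label. A pseudocount of 20 CPM left 21 genes higher than in smooth muscle. In the 20 cells at or below 10% endothelial, 416 genes were lower than in the endothelial mean and 188 lower than in smooth muscle, 33 led the next label and 45 list members were lower than in the endothelial mean (29 in all PC cells). Without the 9 cells above 50% (chosen after seeing the data) the lower counts were 368 and 123, and without both sets 398 and 141, with 45 list members lower. The median pan endothelial gene was then at 4.88% and 4.66% of the endothelial mean. The share of calls that were higher against the endothelial mean was 36.8% in all PC cells, 24.9% in the 20 cells, 25.7% without the 9, 25.2% without both sets, 26.1% without the top cell of each gene and 57.4% with no minimum share; against smooth muscle it was 45.7%, and 21.7%, 22.2% and 20.3% in the same cell sets and 33.3% with the larger pseudocount. Limits of 5% and 20% gave 10 and 33 cells in place of 20.

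With 1 plate left out at a time, the ranges were 118 to 133 higher and 173 to 309 lower against the endothelial mean, 47 to 73 and 68 to 117 against smooth muscle, 342 to 378 and 291 to 351 against MG, 11 to 17 genes ahead of the next label, 19.7% to 24.4% for the median endothelial gene and 11 to 17 cells at or below the limit. The highest smooth muscle counts and the 11 cells came without s482s. DESeq2 size factors moved the median gene by 0.13 against the endothelial mean and by −0.19 against MG, and TMM by −0.29 against MG (log2). The TMM shift exceeds the median difference from MG of 0.18. The share of higher calls against MG was 53.5%, and 44.9% with TMM, 47.5% with DESeq2 factors, 48.5% without the top cell of each gene, 45.8% in the 20 cells, 46.7% without the 9 and 45.8% without both sets, so the larger side changed. With no minimum share it also changed against the endothelial mean and smooth muscle. For genes named by log2 difference from the endothelial mean, smooth muscle or MG, no difference changed sign in the alternatives run. Of their values, 971 moved by less than the spread between plates and 83 by more. Genes named only as list members or by fold to the next label were not checked singly. Over the other sets of PC cells, 241 list medians moved by less than that spread and 47 by more. The causes were not tested. The 54 cells and their depth limit genes read in few cells, and the number of animals is not known.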
